A study of Mus musculus with 2 samples.

Results

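The 9 genes examined here encode transcription factors that set the identity of lymphocytes: Eomes, Tbx21, Zeb2, Id2, Tcf7, Id3, Gata3, Foxp3 and Tox. They were chosen by name, and all 9 were found by symbol among 31053 genes of a single-cell RNA sequencing experiment. CD45+ leukocytes had been sorted on day 4 from subcutaneous melanomas grown in C57BL/6 mice 8 weeks old, and captured with 10x Genomics 3′ chemistry, which counts each captured transcript as a unique molecular identifier (UMI). The melanoma cells lacked Ptgs (cyclooxygenase) according to the titles and the design text, although the genotype label of both samples reads wildtype tumor cells. One group, called control here, was untreated. The other, NK cell-depleted, had received 200 µg of anti-NK1.1 and 30 µg of anti-asialo GM1 on days 0 and 2 after the tumor cells. Each group is 1 library made from pooled tumors, and a small share of parental melanoma cells had been added to both. NK1.1 and asialo GM1 are not confined to NK cells (NKT cells and type 1 innate lymphoid cells also carry NK1.1), so the depletion is not a pure loss of NK cells by design.

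Lymphocyte fates are held in place by a small network of such factors. The T-box factors Eomes and T-bet (the product of Tbx21) act together in natural killer (NK) cells and cytotoxic T cells, and Zeb2 works downstream of T-bet in the last steps of their maturation. Id2 and Id3 have no DNA-binding domain and hold E proteins inactive by pairing with them. TCF-1 (the product of Tcf7) keeps T cells and early NK cells in a naive or memory-like state, Gata3 is needed by T helper 2 cells and type 2 innate lymphoid cells (ILC2), Foxp3 defines regulatory T cells, and Tox acts in the development and exhaustion of T cells.

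The DNA just upstream of the T-box pair is shown because these genes carried the largest NK-like over T-like ratios of the set. The stretches below are the 250 bases before the RefSeq start of each gene in build GRCm38.p6, written 5′ to 3′ on the gene's own strand, chr9:118477939-118478188 on the plus strand for Eomes and chr11:97115332-97115581 on the minus strand for Tbx21. Capitals mark the matches to 5 short motifs, each searched on both strands. The T-box letters searched were GGTGTGA. The E-box letters, which Zeb2 can bind, were CACCTG. Factors of the GATA family were represented by the letters AGATAA. The letters taken for TCF-1 and its relatives were CTTTGA. For the RUNX family the letters were TGTGGT.
Eomes: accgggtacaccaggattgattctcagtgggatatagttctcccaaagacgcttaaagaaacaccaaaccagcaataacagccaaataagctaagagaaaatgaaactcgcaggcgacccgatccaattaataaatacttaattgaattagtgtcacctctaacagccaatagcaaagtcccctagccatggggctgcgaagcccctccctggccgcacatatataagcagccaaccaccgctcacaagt
Tbx21: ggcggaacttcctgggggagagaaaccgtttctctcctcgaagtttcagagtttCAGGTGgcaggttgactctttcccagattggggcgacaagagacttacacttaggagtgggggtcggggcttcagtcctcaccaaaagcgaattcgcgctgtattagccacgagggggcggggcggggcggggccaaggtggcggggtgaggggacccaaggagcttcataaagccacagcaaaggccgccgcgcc
Tbx21 held 1 match, CACCTG in reverse orientation, starting 196 bases before the gene's start, and Eomes held none of the 5. Among 32851 promoter stretches of the same length, 17.2% held the E-box, 14.0% the RUNX, 13.8% the TCF, 9.99% the GATA and 3.33% the T-box letters, so a single such match is common.

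After the study's cell limits 5292 of 6115 control cells and 4506 of 5536 NK cell-depleted cells were kept, with medians of 4170 and 4893 UMIs per cell. Of the kept cells, 5 barcodes occurred in both libraries. Cells were clustered without the 9 genes and named from marker genes. The control library held 548 NK-like cells and the NK cell-depleted library 1, so levels in NK-like cells are those of the control library alone. T-like cells numbered 287 and 221, B-like cells 56 and 37, monocyte/macrophage-like cells 2531 and 2453, and neutrophil-like cells 361 and 457, control first. Levels are given as CPM, UMIs of the gene scaled to the same total for every class (counts per 1e6 UMIs), with the exact Poisson 95% interval. With 1 library a group and no replicates, no test was run and every interval covers counting error only. A difference is called where it reached 2-fold with at least 20 UMIs over both sums.

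Eomes, which directs NK cell maturation, was found almost wholly in NK-like cells. It gave 811 of 859 control UMIs there, or 595 CPM (554 to 637), against 5 UMIs in control T-like cells and 8 in control monocyte/macrophage-like cells. A further 25 UMIs, 158 CPM (102 to 234), lay in 19 control cells of a small cluster with a median of 7664 UMIs that carried NK and macrophage markers together and was left unnamed. Of the NK cell-depleted cells, only 1 held Eomes, a T-like cell with 2 UMIs. The fold between whole libraries was 402 (111 to 3328), which is the count of NK-like cells as much as a level per cell, since fewer cells of a type and less RNA per cell cannot be told apart in a whole-library sum. The single cell named NK-like in the NK cell-depleted library held 8 UMIs of Id2, 5 of Tcf7 and 1 of Gata3 but none of Eomes, Tbx21 or Zeb2. With 4090 UMIs in this cell, 0 has an exact upper limit of 902 CPM.

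Tbx21 followed the same order at lower contrast. NK-like cells held 273 of the 322 control UMIs, 84.8% (80.4 to 88.5), and T-like cells 19. In the NK cell-depleted library 17 UMIs were left, of which 10 lay in T-like cells, so the whole-library ratio was 17.7 (10.9 to 30.8). Tox, the third member past 2-fold between whole libraries, had 155 and 67 UMIs, a ratio of 2.17 (1.62 to 2.93). Of the 155, 83 lay in NK-like cells, and in T-like cells alone the Tox ratio was 0.926 (0.637 to 1.35). All 9 members had enough UMIs in that comparison and 3 were higher in the control library, where 3.75% of 12677 genes were, and none was lower, where 1.71% were. With 548 NK-like cells in one library and 1 in the other, genes found mostly in NK-like cells are higher in the control sum through the depletion itself. The count therefore does not speak to levels per cell.

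The members divided into those found mainly in lymphocytes and those shared with myeloid cells. In control monocyte/macrophage-like cells Foxp3, Tox, Tbx21, Eomes, Tcf7 and Gata3 stayed between 0 and 1.61 CPM. Zeb2 reached 1358 CPM there (1338 to 1379), above the 385 CPM (353 to 419) of NK-like cells and the 65.6 CPM (47.3 to 88.7) of control T-like cells. Id2 gave 1180.4 CPM (1124 to 1239) in NK-like cells, 1046 in migratory dendritic cell-like cells and 582 (569 to 595) in monocyte/macrophage-like cells. Most control UMIs of Id3, 365 of 517, lay in monocyte/macrophage-like cells, and 3 lay in NK-like cells. Its highest level per UMI was in B-like cells of the NK cell-depleted library, 86.6 CPM on 6 UMIs (31.8 to 189). The B-like cells had the lowest Id2 of the named classes, 5 UMIs in control and 7 in NK cell-depleted cells.

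**Figure D1:**
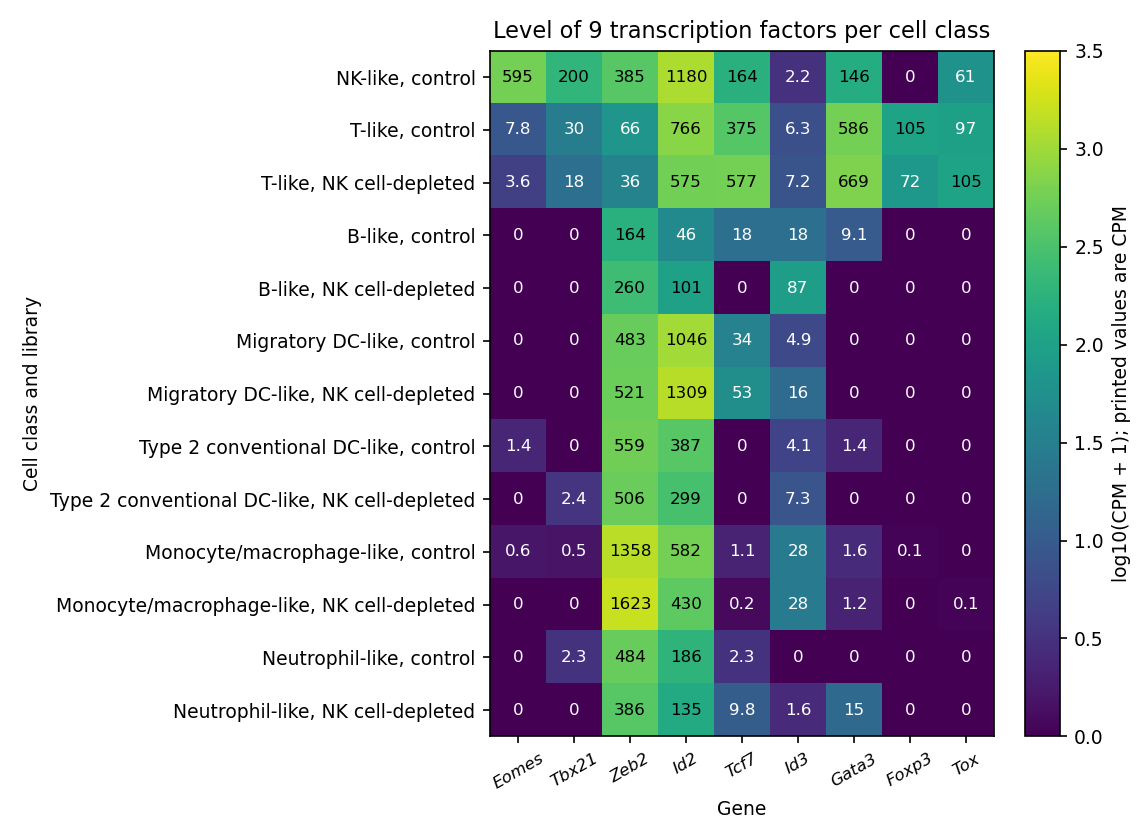
Level of each of the 9 genes (columns) in each named cell class and library (rows), as log10(CPM + 1) in color with the CPM printed in each square; the single NK-like cell of the NK cell-depleted library is left out. Eomes stands at 595 CPM in NK-like cells and at 7.82 CPM or less in every other row, while Zeb2 is highest in the monocyte/macrophage-like rows.

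Detection per cell was compared at a fixed depth. Among 308 NK-like cells thinned to 2000 UMIs, a UMI of Id2 was seen in 75.3% (70.1 to 80.0), of Eomes in 63.0% (57.3 to 68.4), of Zeb2 in 40.3%, of Tbx21 in 29.2%, of Tcf7 in 26.3%, of Gata3 in 23.1% and of Tox in 12.7%. Foxp3 was in 0 of the 308 cells. Monocyte/macrophage-like cells, which should lack the T-box pair and had a median of 4706 UMIs before thinning against 2148 for NK-like cells, held Eomes in 0.135% and Tbx21 in 0.0451% of 2215 thinned control cells. NK marker genes summed to 50.1 CPM in these cells (13 of 13 detected) and to 29.7 CPM in those of the NK cell-depleted library (6 of 13), where Eomes and Tbx21 were at 0. Without thinning, NK-like cells put Eomes at 69.0% and Tbx21 at 36.9%.

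NK-like and T-like cells of the control library were compared to see which factors separate these lymphocytes. Of the 9 members 8 had enough UMIs, and 3 were higher and 3 lower in NK-like cells, where 8.44% of 7948 genes were higher and 7.37% lower. Eomes was 76.1-fold higher (32.5 to 235). Tbx21 was 6.74-fold higher (4.23 to 11.4) and Zeb2 5.86-fold (4.28 to 8.23), from 525 UMIs in NK-like and 42 in T-like cells. The 3 factors linked to cytotoxic maturation thus lay on the NK-like side.

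The members on the T-like side were Foxp3, Gata3 and Tcf7. Foxp3 had 67 UMIs in T-like and 0 in NK-like cells. It was 47.6-fold higher in T-like cells against a floor of 3 UMIs per class, with an exact lower limit of 37.7. Gata3 had 375 and 199 UMIs, 4.02-fold higher in T-like cells (3.37 to 4.79), and Tcf7 had 240 and 223, 2.29-fold higher (1.90 to 2.77). Gata3 and Tcf7 were nonetheless present in NK-like cells, at 146 CPM (126 to 168) and 164 CPM (143 to 186).

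Id2 and Tox did not reach 2-fold. Id2 was 1.54-fold higher in NK-like cells (1.39 to 1.71), and the Tox ratio was 0.628 (0.446 to 0.887). Id3, with 3 and 4 UMIs, was too rare to compare. The median log2 ratio of the 8 members was -0.03, next to 0.01 over all genes. NK marker genes summed to 679.9 CPM in control T-like cells and 14596 CPM in NK-like cells, with all 13 detected in both, and of the 18 T-like cells with Tbx21 only 1 held 4 or more NK markers, as did 2 of the 5 with Eomes.

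**Figure D2:**
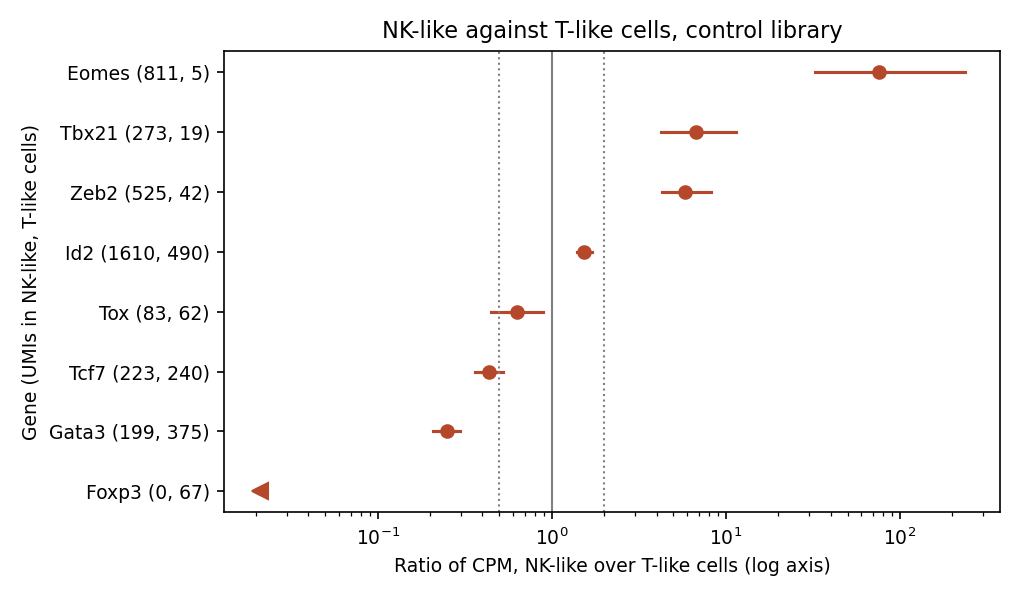
Ratio of CPM in NK-like over T-like cells of the control library on a log axis, with the exact 95% interval for counting error, for the 8 members with at least 20 UMIs; UMIs in each class stand beside the name, the triangle is a bound for Foxp3, and dotted lines mark 2-fold. Eomes, Tbx21 and Zeb2 lie to the right of the upper line and Tcf7, Gata3 and Foxp3 to the left of the lower.

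Of 25 other lymphocyte factors on a list 23 were measured. In NK-like cells 3 of them were higher and 7 lower, where 8.44% of all genes were higher and 7.37% lower, and the list's median log2 ratio was -0.33 against 0.01. Tcf4, an E protein, was 6.18-fold higher (3.44 to 12.2), Nfil3, which NK cells need to develop, 2.39-fold (1.45 to 4.15), and Runx3, a partner of T-bet in cytotoxic cells, 2.07-fold (1.72 to 2.49). On the T-like side stood Bcl11b, the T lineage commitment factor, with 23 NK-like and 355 T-like UMIs. Rora, used by ILC2 and by T helper 17 cells, had 48 and 360. Irf4, Maf, Zbtb16 and the TCF-1 relative Lef1 were also lower, with ratios from 0.113 to 0.432; for Zbtb16, with 10 and 11 UMIs, the interval reached 1 (0.162 to 1.11).

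Zeb2 and Tcf7 were found together in somewhat fewer NK-like cells than the product of their shares gives, a shortfall for which no interval was computed. Zeb2 was detected in 277 and Tcf7 in 146 of the 548 cells, and 62 held both, where the product of the shares gives 73.8. Tcf7 was seen in 22.4% of cells with Zeb2 and in 31.0% of cells without it. In thinned cells these shares were 18.5% and 31.5%. Tbx21 leaned the other way and was found with Zeb2 in 48 of 308 thinned cells, where the product of shares gives 36.2.

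Splitting the NK-like cells by these 2 members arranged known maturation genes. The 215 cells with Zeb2 and no Tcf7 were set against the 84 with Tcf7 and no Zeb2, with medians of 2003 and 2760 UMIs. Zeb2 and Tcf7 chose the cells and are not results. Zeb2 was also abundant in monocyte/macrophage-like cells, and macrophage markers summed to 1625.5 CPM in control NK-like cells (14 of 14 detected). Ly6c2 of the late list is one of those markers, and Cx3cr1 was among the leading genes of a monocyte/macrophage-like cluster. The split was not repeated without cells holding markers of another lineage, and the part of macrophage transcripts was not tested. Of 8 other genes of a late maturation list, all measured, 6 were past 2-fold higher in the Zeb2 cells, where 4.25% of 5175 genes were, and the median log2 ratio was 1.34 against 0.05 over all genes. Cma1, the chymase gene, had 103 and 3 UMIs, a ratio of 18.3 (6.10 to 90.4). The inhibitory receptor gene Klrg1 had 69 and 6, a ratio of 6.14 (2.68 to 17.3). The chemokine receptor gene Cx3cr1 had 27 and 0, 4.81-fold higher against a floor of 3 UMIs, with an exact lower limit of 3.65.

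The cytotoxic genes moved the same way by less, with Gzmb at 2.83 (2.14 to 3.81) and Prf1 at 2.22 (1.87 to 2.66). S1pr5, a receptor for the egress of mature NK cells, was at 2.00 with an interval that included 1 (0.897 to 5.06), and on the log2 scale with the added 0.5 UMI it was short of 2-fold (0.94). Itgam, at 1.80 (1.23 to 2.68), did not reach 2-fold.

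All 10 genes of the early list lay below 1, with 4 past 2-fold lower, where 2.76% of genes were, and a median log2 ratio of -0.90. Il7r, the interleukin-7 receptor gene, had 1 UMI in the Zeb2 cells and 20 in the Tcf7 cells, a ratio of 0.0267 (0.000645 to 0.167). Kit was at 0.267 (0.126 to 0.539), Ltb at 0.348 (0.212 to 0.564) and Emb at 0.369 (0.311 to 0.437). Cd27, the usual surface marker of early NK cells, was at 0.503 (0.352 to 0.718), just short of 2-fold.

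Among the members themselves, Tbx21 was 2.03-fold higher in the Zeb2 cells (1.38 to 3.05), with 129 and 34 UMIs. Eomes at 1.19 (0.966 to 1.48), Gata3 at 1.23 (0.808 to 1.91), Id2 at 1.12 and Tox at 1.11 all had intervals that included 1. None of the 7 genes of a type 1 innate lymphoid cell list reached 20 UMIs. In cells thinned to 2000 UMIs before the split, 101 against 58 cells, 6 of 6 measured late genes stayed above 1 and 9 of 9 early genes below it.

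**Figure D3:**
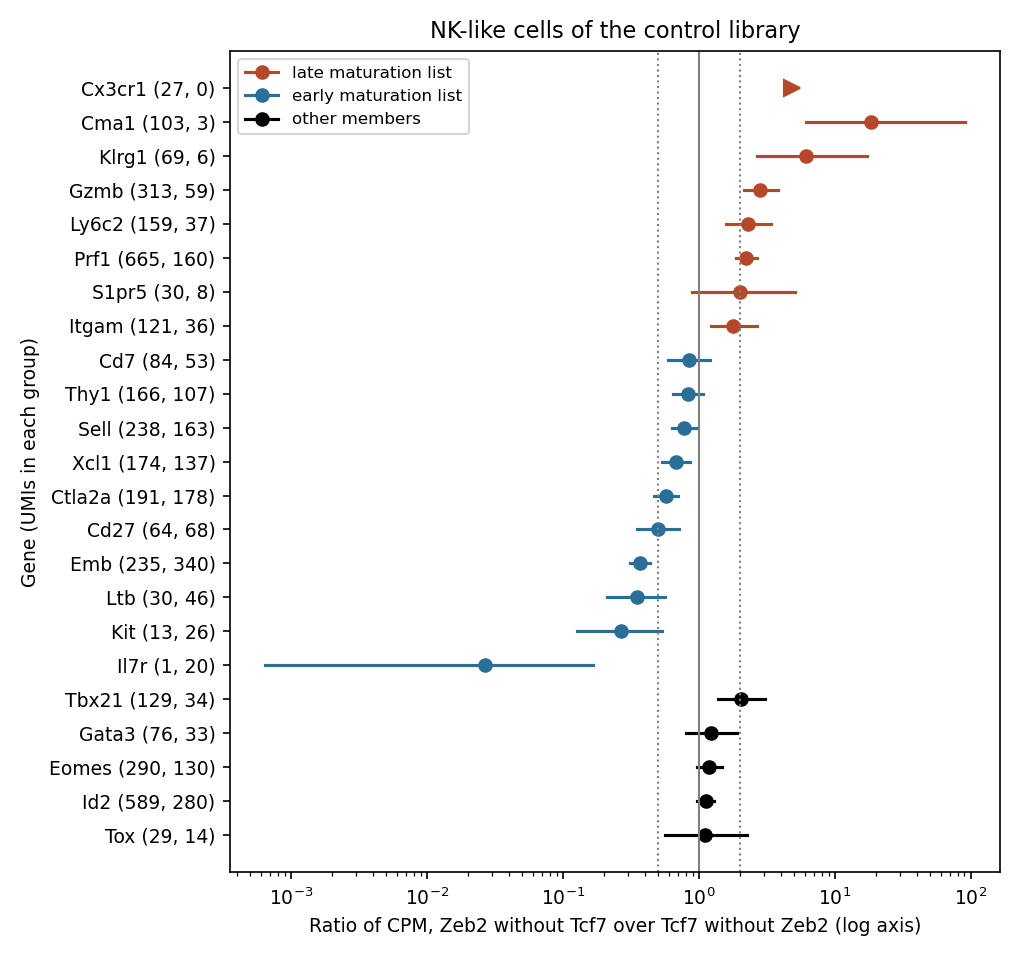
Ratio of CPM in NK-like cells with Zeb2 and no Tcf7 over those with Tcf7 and no Zeb2, control library, on a log axis with exact 95% intervals for counting error; UMIs in each group stand beside the name and the triangle is a bound. All late maturation genes lie above 1 and all early ones below it, while of the other members only Tbx21 has an interval clear of 1.

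T-like cells were sorted into groups by marker transcripts that include none of the 9 genes. Cd8 T cells had a UMI of Cd8a or Cd8b1 and none of Cd4 (38 control, 24 NK cell-depleted). Cd4 T cells had a UMI of Cd4, none of Cd8a or Cd8b1, and did not meet the rule for regulatory-like cells (47 and 48). Regulatory-like T cells held at least 3 of 6 markers such as Ctla4 and Il2ra (47 and 30). Gamma-delta-like T cells (37 and 17) held at least 2 gamma-delta receptor or related genes, and ILC2-like cells (19 and 28) at least 2 ILC2 genes with no Cd3 or Trac. The other 99 and 74 cells met none of these rules.

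Foxp3, the defining factor of regulatory T cells, was found mainly in the regulatory-like group. Of 67 control UMIs 48 lay in regulatory-like T cells, and of 40 NK cell-depleted UMIs 35 did, at 364 CPM (268 to 483) and 329 CPM (229 to 458). Cd8 T, gamma-delta-like and ILC2-like cells had none in either library. A floor of 3 UMIs there is 33.8 to 70.0 CPM in the control and 44.1 to 55.4 CPM in the NK cell-depleted groups. Across both libraries 6 of 508 T-like cells held Foxp3 and Tcf7 together, where the product of the shares gives 25.2, and 39 held Foxp3 and Gata3, where it gives 24.7.

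Gata3 was highest in ILC2-like cells, at 1307 CPM (987 to 1698) in the control and 2816 CPM (2427 to 3250.4) in the NK cell-depleted library. Of these cells 16 of 19 and 27 of 28 held at least 1 UMI. Regulatory-like T cells came next, at 774 and 724 CPM, and Cd8 T cells were lowest, at 136 and 88.2 CPM. Tcf7 was highest in the Cd8 and Cd4 groups, with 591 and 882 CPM in Cd8 T cells, 479.6 and 908 in Cd4 T cells, 98.6 and 273 in regulatory-like T cells, and 140.1 and 30.1 in ILC2-like cells. Gata3 and Tcf7 were found together in 87 of 508 T-like cells, where the product of the shares gives 117.

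Tox ranged over the groups from 57.2 to 210.1 CPM in the control library, on 6 to 19 UMIs a group, and the counting intervals of all 6 groups overlapped. Eomes in T-like cells amounted to 5 control UMIs, 3 of them in Cd8 T cells, and 2 NK cell-depleted UMIs, both in Cd8 T cells. Tbx21 was spread thinly, with at most 7 UMIs in any group. Id2 was highest in ILC2-like cells, at 1751 and 1280.2 CPM, and lowest in Cd8 T cells, at 466 and 176 CPM.

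**Figure D4:**
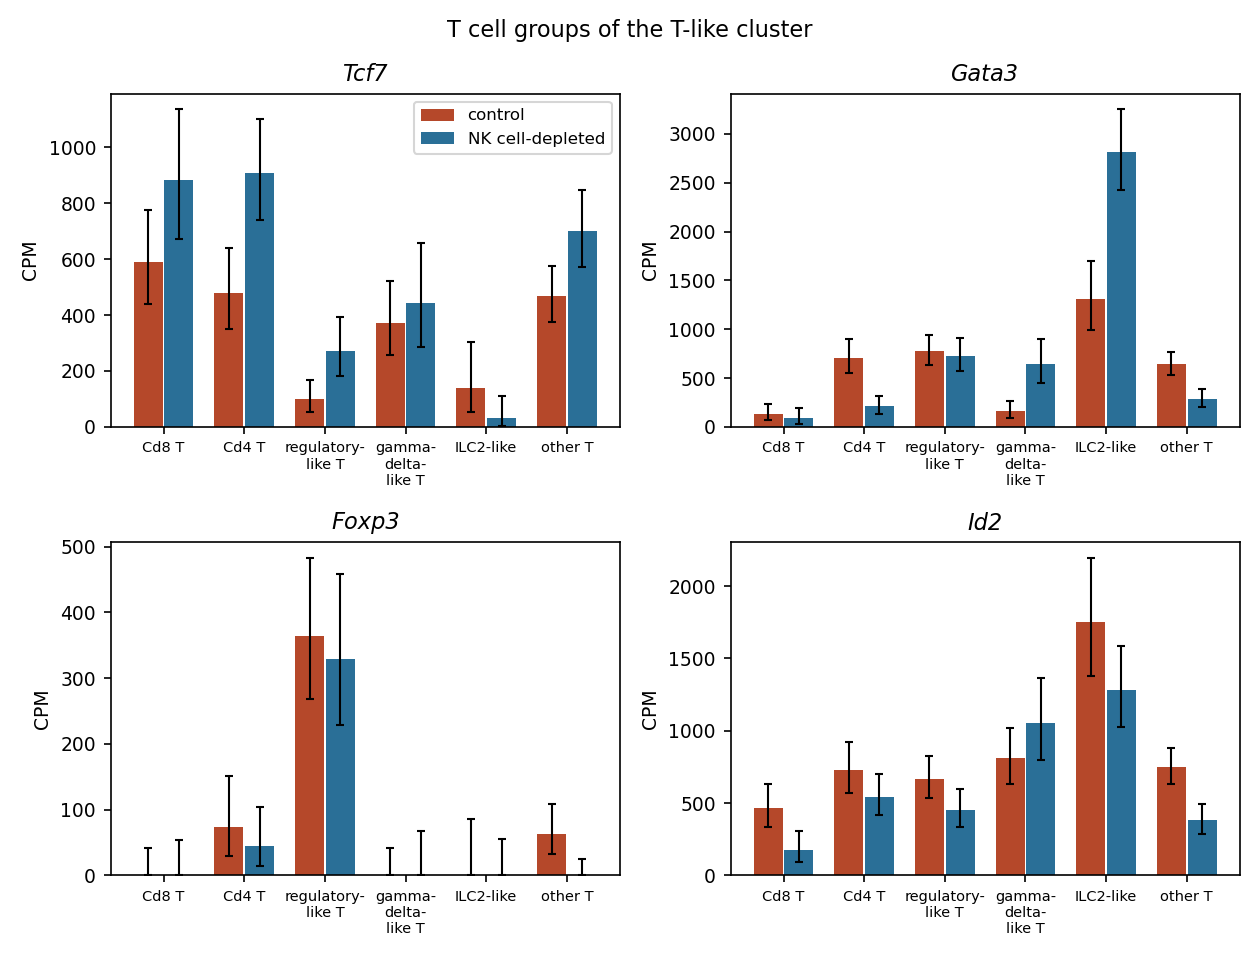
CPM of Tcf7, Gata3, Foxp3 and Id2 in 6 groups of T-like cells in the control (red) and NK cell-depleted (blue) library, bars from 0 with exact Poisson 95% intervals for counting error. Foxp3 stands out in regulatory-like T cells, Gata3 in ILC2-like cells, and Tcf7 is higher in the NK cell-depleted library in Cd4 T cells.

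The T-like cells of the 2 libraries were compared to see whether these factors differed in T cells when NK cells were depleted. Of 7 members with enough UMIs none was past 2-fold, where 3.52% of 6614 genes were higher and 2.96% lower in the control library. The median log2 ratio of the 7 was 0.41 against 0.01 over all genes. Tcf7 had 240 control and 320 NK cell-depleted UMIs, a ratio of 0.650 (0.547 to 0.771), or 375 against 577 CPM. Id2 had 490 and 319, a ratio of 1.33 (1.15 to 1.54), and Zeb2 42 and 20, a ratio of 1.82 (1.04 to 3.27). Gata3 at 0.876 (0.757 to 1.01), Foxp3 at 1.45 (0.967 to 2.20), Tox at 0.926 (0.637 to 1.35) and Tbx21 at 1.65 (0.728 to 3.96) had intervals that included 1.

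The ILC2-like group weighed on Gata3 in this comparison, with 56 of its 375 control and 187 of its 371 NK cell-depleted UMIs. In an alternative added after seeing the data, which left that group out, 268 and 193 cells remained and Gata3 had 319 and 184 UMIs. Its ratio was then 1.42 (1.18 to 1.71), or 534 against 377 CPM, on the other side of 1 and beyond counting error. Tcf7 was at 0.601 (0.506 to 0.714) and Id2 at 1.45 (1.23 to 1.71) without these cells, and the interval of Zeb2 then included 1 (0.838 to 2.79).

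Other cells' transcripts moved with this comparison. Macrophage markers summed to 1371 CPM in control T-like cells (14 of 14 detected) and 747 CPM in NK cell-depleted ones (12 of 14, with Adgre1 and Cd14 at 0). NK markers summed to 679.9 and 545 CPM, with Ncr1, Klra4, Klra8 and Gzma at 0 in the NK cell-depleted cells. Both Zeb2 and Id2 are abundant in macrophage-like or NK-like cells, and the part of these transcripts in their ratios was not tested.

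The Tcf7 ratio differed with the mitochondrial share of the cells, a measure of cell state and quality. T-like cells of the NK cell-depleted library had a median mitochondrial share of 6.22% and those of the control library 5.37%. Among cells over 5%, Tcf7 stood at 742 CPM (657 to 834) in 144 NK cell-depleted cells and 399.6 CPM (339.7 to 467) in 171 control cells. Among cells at or under 5% the order was turned, with 230.2 CPM (165 to 312) in 77 NK cell-depleted and 336 CPM (267 to 417) in 116 control cells, a log2 ratio of 0.53 with overlapping intervals. Split at this limit, a lower Tcf7 in control T-like cells was seen only in cells over it. The make-up of the T cell groups on each side of the limit was not compared, and its part was not tested.

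Gata3 and Foxp3 also depended on this limit. At or under 5%, Gata3 was at 1241 CPM (1083 to 1416) in the NK cell-depleted and 778 CPM (671 to 896) in the control library, whereas over 5% it was at 399 and 468 CPM. Foxp3 at or under 5% was at 67.4 CPM (34.8 to 118) against 168 CPM (120.4 to 228), and over 5% at 74.4 against 65.7 CPM. The part of cell quality in these differences was not tested.

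Within the groups the ratios were uneven. In Cd4 T cells Gata3 had 68 control and 24 NK cell-depleted UMIs, a ratio of 3.32 (2.06 to 5.53), and was the 1 member of 3 measured that was past 2-fold higher, where 4.01% of 1844 genes were, and none was lower, where 4.77% were. Tcf7 there had 46 and 102 UMIs, a ratio of 0.528 (0.365 to 0.755), just short of 2-fold lower. In the unassigned T-like cells Gata3 was also higher in the control library, with 123 and 42 UMIs and a ratio of 2.24 (1.57 to 3.26), 1 of 4 measured members where 7.52% of 2791 genes were, with none lower, where 4.3% were. The unassigned groups were not alike. Control first, Il2ra was at 172 and 74.8 CPM, Ctla4 at 296 and 190, and Il1rl1 at 291 and 116. Foxp3 had 12 and 0 UMIs there, while Areg went the other way, at 41.6 and 68.0 CPM. In Cd4 T cells Areg had 20 and 1 UMIs and Il1rl1 14 and 5, while Il2ra had 2 and 6. The part of these differences in the Gata3 ratios was not tested.

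Gata3 went the other way in the innate-like groups. ILC2-like cells had 56 control and 187 NK cell-depleted UMIs, a ratio of 0.464 (0.338 to 0.629), 1 of 2 members where 8.89% of 844 genes were lower and 3.55% higher. Gamma-delta-like T cells had 14 and 35, a ratio of 0.244 (0.121 to 0.465), 1 of 3 where 4.28% of 1261 were lower and 6.74% higher. The gamma-delta-like groups were not alike, since Trac stood at 33.8 CPM in the control and 332 CPM in the NK cell-depleted group, and 5 of the 17 NK cell-depleted cells held 82.9% of the Gata3 UMIs. Control first, the ILC2 markers Il1rl1 and Areg had 0 and 10 UMIs and 0 and 5 UMIs there. Il2ra was at 90.1 and 351 CPM, while Ctla4 went the other way, with 6 and 2 UMIs. The difference between groups was not tested.

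In regulatory-like T cells Foxp3 differed by less than its counting error, with a ratio of 1.11 (0.700 to 1.76), as did Gata3 (1.07, 0.787 to 1.46) and Tox (0.957, 0.466 to 1.99). Tcf7 had 13 and 29 UMIs there, a ratio of 0.361 (0.172 to 0.717), 1 of 5 members where 4.42% of 2260 genes were lower and 4.47% higher. These UMIs came from few cells, 8 of 47 control and 6 of 30 NK cell-depleted cells, and 5 of the latter gave 96.6% of the 29. In thinned cells the share with Tcf7 was 24.2% (control) and 14.3% (NK cell-depleted). In Cd8 T cells Id2 had 41 and 12 UMIs, a ratio of 2.64 (1.36 to 5.51), 1 of 2 members where 11.9% of 1209 genes were higher and 4.22% lower. The top 5 cells gave 70.7% of the 41 control UMIs and 75% of the 12 NK cell-depleted ones. Id2 was detected in 39.5% of the control and 33.3% of the NK cell-depleted Cd8 T cells. Zeb2 had 12 and 0 there, 3.09-fold higher in the control library against a floor of 3 UMIs. Its exact lower limit was 2.15, it was under the minimum of 20 UMIs, and 5 cells gave 11 of the 12 control UMIs.

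Of the 25 other lymphocyte factors 22 had enough UMIs in T-like cells. In the control library 2 were higher and 3 lower, where 3.52% and 2.96% of 6614 genes were, and the list's median log2 ratio was -0.05 against 0.01 over all genes. Satb1, a chromatin organizer of the T lineage, had 298 control and 635 NK cell-depleted UMIs, a ratio of 0.407 (0.353 to 0.467). Lef1 had 101 and 207, a ratio of 0.423 (0.330 to 0.539), and Bach2, which restrains effector programs, 48 and 118, a ratio of 0.352 (0.247 to 0.497). At or under 5% mitochondrial UMIs Lef1 stood at 164 and 140.4 CPM, control first, while Satb1 was at 475 and 657 and Bach2 at 85.9 and 168 CPM. Of the 2 higher in the control library, Batf had 25 and 10 UMIs and a lower bound of 1.005.

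In monocyte/macrophage-like cells 4 members had enough UMIs and none was past 2-fold, where 2.71% of 11362 genes were higher and 0.775% lower in the control library. Zeb2 was at 1358 CPM in the control and 1623 CPM (1602 to 1645) in the NK cell-depleted library, a ratio of 0.837 (0.820 to 0.854). Id2 was at 582 and 430.0 CPM (419 to 441), a ratio of 1.35 (1.31 to 1.40). Id3 was level, with 365 and 375 UMIs and a ratio of 1.02 (0.877 to 1.18), and Gata3 had 21 and 16 UMIs. Tcf7, with 15 and 3 UMIs, Eomes, with 8 and 0, and Tbx21, with 7 and 0, were under the minimum of 20. The median log2 ratio of the 4 was 0.23 against -0.01 over all genes. Outside this class, the unnamed clusters 2 and 5 each had 14 macrophage markers detected in at least 20% of cells. In cluster 2 Id3 had 44 control and 54 NK cell-depleted UMIs, a ratio of 0.410 (0.269 to 0.623). In cluster 5 it had 78 and 154, a ratio of 0.755 (0.567 to 0.997).

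Id2 varied more between clusters than between libraries. Across the 10 monocyte/macrophage-like clusters Id2 ranged from 117 to 996 CPM in the control library. The unnamed clusters 2 and 5, not among the 10, had 404 and 94.8 CPM there. The Ly6c2-led monocyte cluster had 119 CPM (105 to 134) and the Chil3-led cluster 117 CPM (96.9 to 141), whereas clusters led by Pf4 and Spp1, by Slc7a2 and by Rhov and Gpnmb had 789, 994 and 996 CPM. The Pf4 and Spp1 cluster held 889 control and 419 NK cell-depleted cells, and the Ly6c2 cluster 376 and 792.

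Within clusters Id2 had no common direction. Counting intervals lay above 1 in 2 clusters, below 1 in 3 and across 1 in 5. In the Pf4 and Spp1 cluster it was lower in the control library, 789 against 892 CPM, a ratio of 0.884 (0.841 to 0.930), and in the Ly6c2 cluster higher, 119 against 65.9 CPM, a ratio of 1.80 (1.52 to 2.13). When the clusters were averaged without regard to their size, the log2 ratio of Id2 was -0.16 in place of 0.44. Clustering used other genes that differ between the libraries, so the number of cells in a cluster is a description.

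Zeb2 behaved more evenly. It was lower in the control library beyond counting error in 7 of 10 clusters and higher in none, and its log2 ratio was -0.26 as summed and -0.16 as an average of clusters. Its lowest level, 489 and 445 CPM, was in a cluster led by Retnla and Lyz1. Id3 was above 1 beyond counting error only in the Ly6c2 cluster, at 58.2 CPM (48.6 to 69.3) against 37.9 CPM, a ratio of 1.54 (1.22 to 1.94).

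**Figure D5:**
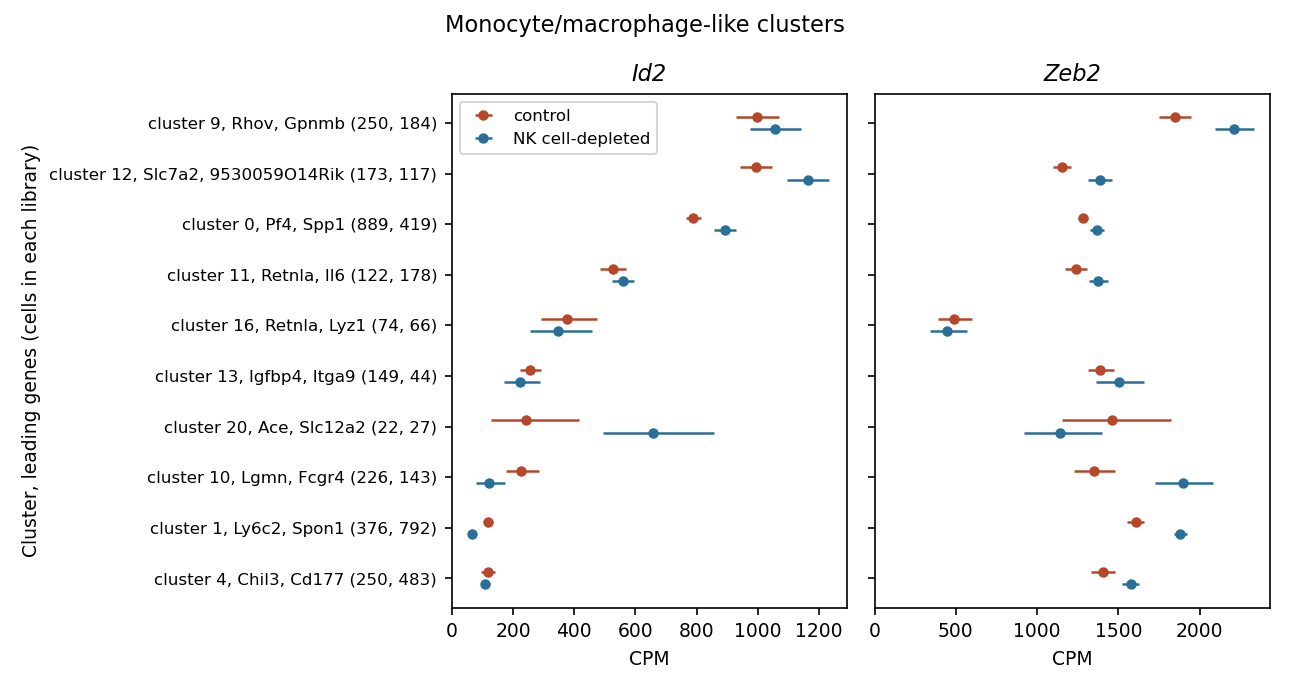
CPM of Id2 and Zeb2 in the 10 monocyte/macrophage-like clusters, control in red and NK cell-depleted in blue, with exact Poisson 95% intervals for counting error; the labels give the cluster's leading genes and its cells in each library, control first. Id2 runs from about 117 to 996 CPM between control clusters, with the libraries close together within most, while Zeb2 is higher in the NK cell-depleted library in most clusters.

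Outside these classes Id2 was 1046 and 1309 CPM in migratory dendritic cell-like cells, control first, with a ratio of 0.799 (0.696 to 0.916). Tcf7 was detectable in the same cells with 14 and 17 UMIs, more than the 1 and 6 UMIs of the larger neutrophil-like class.

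The genes whose levels ran closest to each member over the 7 named classes of the control library were found by Pearson correlation of log2(CPM + 5) among 9450 genes, a description over few classes of one library. For Eomes these were Il12rb2, Klra9 and Samd3 (r from 0.996 to 0.998), for Tbx21 Itga2, Nrgn and Sytl3 (0.994 to 0.998), and for Foxp3, with only 72 UMIs, Mcpt4, Trat1 and Cxcr6 (0.975 to 0.994). Tox had Lef1 (0.998) and Klrg1 (0.997), Gata3 Lypla2, Sh2b1 and Lef1 (0.981 to 0.988), and Tcf7 1500015A07Rik, Gpn1 and Syne2 (0.971 to 0.996). Id2 had Ints3, Itgb1 and Abhd16a (0.994 to 0.996). Zeb2 had Chmp5 (0.972) and Arl1 (0.943), and Id3 had Clybl, Tlr7 and Tor3a (0.917 to 0.963).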

How the data were processed

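Single-cell 3′ RNA libraries of sorted CD45+ cells were analysed from the UMI count matrices that the authors deposited, made with Cell Ranger (3.0.2 in the matrix header) on mm10 per the labels. Annotation and counting options were not given in the sources used here. A normalized table was not used. The study's limits on cells were applied (from 500 up to 15000 UMIs, from 200 up to 4000 genes, mitochondrial share no higher than 10%). Cells were clustered (15 principal components, 20 neighbors, Leiden at resolution 1, scanpy 1.11.5, leidenalg 0.10.2) without the 9 genes and the listed partners, and named from fixed markers; the naming thresholds were set after clusters were seen, and 6 clusters stayed unnamed. For each class, the UMIs of its cells in a library were added up and expressed as CPM. Ratios carry exact conditional binomial intervals, levels exact Poisson and shares exact Clopper-Pearson intervals (95%). Log2 ratios add 0.5 UMI to each sum, and bounds against 0 use a floor of 3 UMIs. No doublets were removed. Members and lists were chosen with earlier results of these data known; the named genes are the 9 members, up to 6 list genes past 2-fold in a comparison and the 3 genes most like each member; Nfil3, Runx3, Lef1 and Zbtb16 between NK-like and T-like cells were named after their values were seen. Code was tested on simulated data. Some genes that these rules select are not reported here.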

Additional observations from a re-analysis of the deposited data

Results flagged for a closer look

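The library difference in Gata3 ran in opposite directions in different groups of T-like cells, each beyond counting error, which is why it is listed here. The log2 ratio of control over NK cell-depleted cells was 1.71 in Cd4 T cells and 1.15 in the unassigned T-like cells, but -2.005 in gamma-delta-like T cells and -1.10 in ILC2-like cells. The gamma-delta-like groups were not alike, with Trac at 33.8 and 332 CPM and Trdc at 991 and 517, control first. The ILC2 markers Il1rl1 and Areg also differed there, with 0 and 10 UMIs and 0 and 5 UMIs. Of the 17 NK cell-depleted gamma-delta-like cells, the top 5 held 82.9% of the Gata3 UMIs. The Cd4 and unassigned groups also differed in other markers, as given above. The difference between groups was not tested, as each library stands alone.

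Cells above the upper limits of 15000 UMIs or 4000 genes were left out of the report's comparisons and entered only the alternative without upper limits. They numbered 212 (control) and 353 (NK cell-depleted). Both Zeb2 and Tcf7 were higher in such cells after depletion, beyond counting error. Zeb2 was at 389 CPM against 364 in the control library, a ratio of 1.07 (1.01 to 1.13), and Tcf7 at 13.5 CPM against 9.29, a ratio of 1.45 (1.05 to 2.02). Other members were lower, with Id2 at 113 CPM against 166, a ratio of 0.676 (0.620 to 0.737), and Eomes at 11 UMIs against 28, a ratio of 0.241 (0.108 to 0.5001). Foxp3 had 12 control UMIs, Tox 11 and Tbx21 5, and all were at 0 after depletion. When cells above the limits were kept and clustered, 1 cluster of 123 control and 266 NK cell-depleted cells, with a median of 27891 UMIs, scored best on the melanoma markers but was left unnamed, and its part in these ratios was not tested.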

How the results depend on the processing

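No paired analysis was possible because each group has 1 library. For the same reason no replicate could be left out. The count of 6 members past 2-fold between NK-like and T-like cells was 6 under every alternative except 7 with no minimum of UMIs. The 3 members with over 50% of their control UMIs in NK-like cells were Eomes, Tbx21 and Tox. Tox was at 53.5%, with an interval that included 50% (45.4 to 61.6), and its level was lower in NK-like than in T-like cells. The share over all genes was not computed. These 3 became 4 at 1000 UMIs and 5% mitochondrial UMIs and 2 with classes called cell by cell. In T-like cells, where 0 members were past 2-fold between libraries, 1 was at 1000 UMIs and 5% mitochondrial UMIs (Foxp3, log2 ratio 1.30), 1 with thinned cells (Foxp3, 1.52), 1 with classes called cell by cell (Tbx21, 1.15), 1 with T cell subsets at the same weight (Zeb2, 1.17) and 2 without the 5 cells richest in each member (Foxp3, 1.06, and Zeb2, 1.22). An alternative added after seeing the data, the limit of 5% mitochondrial UMIs with the classes as reported, also gave 1 (Foxp3, 1.27), and 1000 UMIs alone gave 0. Another, T-like cells without the ILC2-like group, gave 0 as well. Tcf7 ranged from -0.73 to 0.53 over the alternatives, Gata3 from -0.78 to 0.52 and Zeb2 from -0.44 to 1.22. In monocyte/macrophage-like cells 0 members became 5 with no minimum of UMIs, 1 at 1000 UMIs and 5% mitochondrial UMIs (Eomes, 24 and 0 UMIs) and 1 with clusters at resolution 2 (Tcf7, 16 and 7 UMIs).

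The 6 ratios past 2-fold between NK-like and T-like cells kept their sign under every alternative run for them. Of 195 single log2 ratios under an alternative 170 stayed within the counting interval of the reported value, but not all of the 195 could move. The alternative with no minimum of UMIs reused the reported ratios. Clusters at resolution 2 held as many control NK-like cells (548) and T-like cells (287 and 221) as reported. Scaling by the median ratio over genes subtracted log2 values of only 0.013, 0.0067 and -0.014. Cells with 2 or more markers of another lineage, or called by Scrublet, numbered 786 (control) and 836 (NK cell-depleted), among them 42 NK-like and 25 T-like control cells and 14 T-like cells after depletion. Depth limits the T cell groups, where Eomes, Tbx21, Zeb2 and Id3 were under 20 UMIs in every group.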
